A study of Mus musculus with 18 samples.

Results

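The genes described here are the interferon-induced antiviral effectors Ifit1, Ifit2, Ifit3, Isg15, Rsad2, Mx1, Mx2, Oasl1, Oasl2 and Usp18, followed through RAW264.7 macrophages and mouse liver after lipopolysaccharide (LPS) with and without moringa isothiocyanate-1 (MIC-1). They were picked by gene symbol, with no use of measured values, and all 10 were found among the 21441 genes of each deposited table. Levels are in FPKM, read counts scaled to transcript length and library size, and a gene was tested where its mean over the 9 libraries of a table was above 1 FPKM. Of the members, 9 passed in macrophages, where Mx1 was too low, and 8 in liver, where Mx1 and Ifit2 were too low.

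Type I interferon binds the receptor Ifnar1-Ifnar2 and, through the Janus kinases, activates a transcription factor complex that holds Stat2 and Irf9 and binds the interferon-stimulated response element (ISRE) in the promoters of antiviral genes. LPS can reach the same genes by way of interferon, since its receptor Tlr4 signals through the adaptor Ticam1 to Irf3 and so turns on the gene of interferon beta. The members act at different points of a viral life cycle. Ifit1, Ifit2 and Ifit3 are RNA-binding or partner proteins that hold back translation of viral RNA, Rsad2 (viperin) makes a nucleotide that stops viral polymerases, Mx1 and Mx2 are dynamin-like GTPases, and Oasl1 and Oasl2 are relatives of the oligoadenylate synthetases. Isg15 is a ubiquitin-like protein that is joined to other proteins, and Usp18 removes it and also dampens signalling at Ifnar2.

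The macrophages were cultures of RAW264.7, a macrophage-like mouse line, with 3 control libraries given solvent, 3 given LPS and 3 given LPS and 10 µM MIC-1. The LPS concentration and the exposure time of these cultures are not given in the sources used here. The sample labels repeat the doses of the mouse experiment for them. The livers came from wild-type male C57BL/6 mice, 3 per treatment. Controls were injected with saline, and the LPS and LPS+MIC-1 mice with 10 mg/kg LPS. Over the 3 days before injection, the LPS+MIC-1 mice received MIC-1 in DMSO by gavage, at 80 mg/kg. The paper describes vehicle gavage as the alternative to MIC-1 and labels its control group as DMSO vehicle. It does not state separately what the LPS group was gavaged with. Liver was taken 16 h after the injection. There were no libraries with MIC-1 alone. The tables were scaled separately, so tests were made only within each table.

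The promoters of 7 members were present in the RefSeq table of 300-base windows (250 bases before to 50 after the transcription start, GRCm38.p6). The ISRE core, spelled GAAANNGAAA and searched on both strands, was found in the windows of 4 of these 7 members, Ifit1, Ifit3, Isg15 and Rsad2. It was found in 3.44% of all 32851 windows. It was not found in the windows of Ifit2, Oasl1 and Oasl2. The core of the gamma-activated site, TTCNNNGAA, was in 8.3% of all windows and, among the members, in Ifit2 alone, 241 bases before the start. The 170 bases before the start of the 4 genes with an ISRE core are shown so that promoters whose genes stood at different levels can be compared. Their mm9 positions are given, the build the deposited values used. They are written 5′ to 3′ along the gene and carry the ISRE cores in capitals.

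Ifit1 (chr19:34715209-34715378, plus strand): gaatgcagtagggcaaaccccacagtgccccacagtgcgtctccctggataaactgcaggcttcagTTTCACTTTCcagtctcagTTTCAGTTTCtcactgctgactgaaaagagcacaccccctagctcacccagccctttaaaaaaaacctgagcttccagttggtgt

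Ifit3 (chr19:34657849-34658018, plus strand): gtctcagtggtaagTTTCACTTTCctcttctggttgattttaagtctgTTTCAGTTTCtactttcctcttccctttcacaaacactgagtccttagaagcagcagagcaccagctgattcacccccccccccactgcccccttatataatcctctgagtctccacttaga

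Isg15 (chr4:155574928-155575097, minus strand): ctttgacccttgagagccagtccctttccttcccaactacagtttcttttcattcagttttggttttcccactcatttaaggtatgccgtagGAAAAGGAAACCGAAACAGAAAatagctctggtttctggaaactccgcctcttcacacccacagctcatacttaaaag

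Rsad2 (chr12:27141318-27141487, minus strand): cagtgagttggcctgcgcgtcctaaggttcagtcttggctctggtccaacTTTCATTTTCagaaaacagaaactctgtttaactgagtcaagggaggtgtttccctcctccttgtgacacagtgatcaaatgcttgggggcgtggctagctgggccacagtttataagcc

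Ifit1 carried 2 cores, 104 and 85 bases before the start, and Ifit3 carried 2, at 156 and 122 bases, with the same letters as those of Ifit1 and in the same order. The 3 cores of Isg15 overlapped, beginning 78, 72 and 66 bases before the start. Rsad2 carried a single core at 120 bases. Windows with at least 2 matches made up 0.225% of all windows. A match describes the letters and not binding.

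In mm9 the 3 Ifit genes lie together on chromosome 19, Ifit2 at chr19:34625184-34650909, Ifit3 at chr19:34658021-34663221 and Ifit1 at chr19:34715361-34724499. Oasl2 (chr5:115346943-115362243) and Oasl1 (chr5:115373249-115387924) are neighbours on chromosome 5, and Mx1 (chr16:97668642-97684514) and Mx2 (chr16:97757690-97782506) on chromosome 16. Isg15 is at chr4:155573533-155574927, Usp18 at chr6:121195924-121220934 and Rsad2 at chr12:27127618-27141317. RefSeq lists Mx1 and Mx2 as transcribed pseudogenes. Neighbours within these families are alike in sequence, and the near copy of Ifit3, Ifit3b (listed as I830012O16Rik), shares sequence with it, so how the counting split reads among them is uncertain.

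Some libraries did not sit where their labels put them, and macrophage results are therefore given with and without the library labelled LPS 2. Libraries are numbered within a treatment by the order of their columns. The library labelled LPS 2 lay among the controls, with a standard deviation of the log2 difference over tested genes of 0.298 to control 2, beside 0.279 between control 1 and control 3, and of 1.21 to LPS 1 and to LPS 3. Over genes of middle read counts, the median of its squared difference from control 2 was 2.28 times the sampling variance, against 91.5 and 92.2 times from LPS 1 and LPS 3. Libraries 1 and 3 were also close in each macrophage treatment, at 2.2 times the sampling variance for control, 2.55 for LPS and 1.91 for LPS+MIC-1, and LPS+MIC-1 2 stood apart from its group at 12.1 and 13.8 times. Libraries 1 and 3 were close in liver too, at 2.73 times for LPS+MIC-1 and 6.95 for LPS. In liver, LPS 2 stood apart from LPS 1 and 3 (75.1 and 79.6 times), control 1 from controls 2 and 3 (69.2 and 73.5) and LPS+MIC-1 2 from LPS+MIC-1 1 and 3 (33.8 and 31.5), so liver calls that 1 library decides are named beside their values. Nothing says that the macrophage libraries came from separate cultures, and their p-values then measure only the spread between these libraries, which may be technical.

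**Figure D1:**
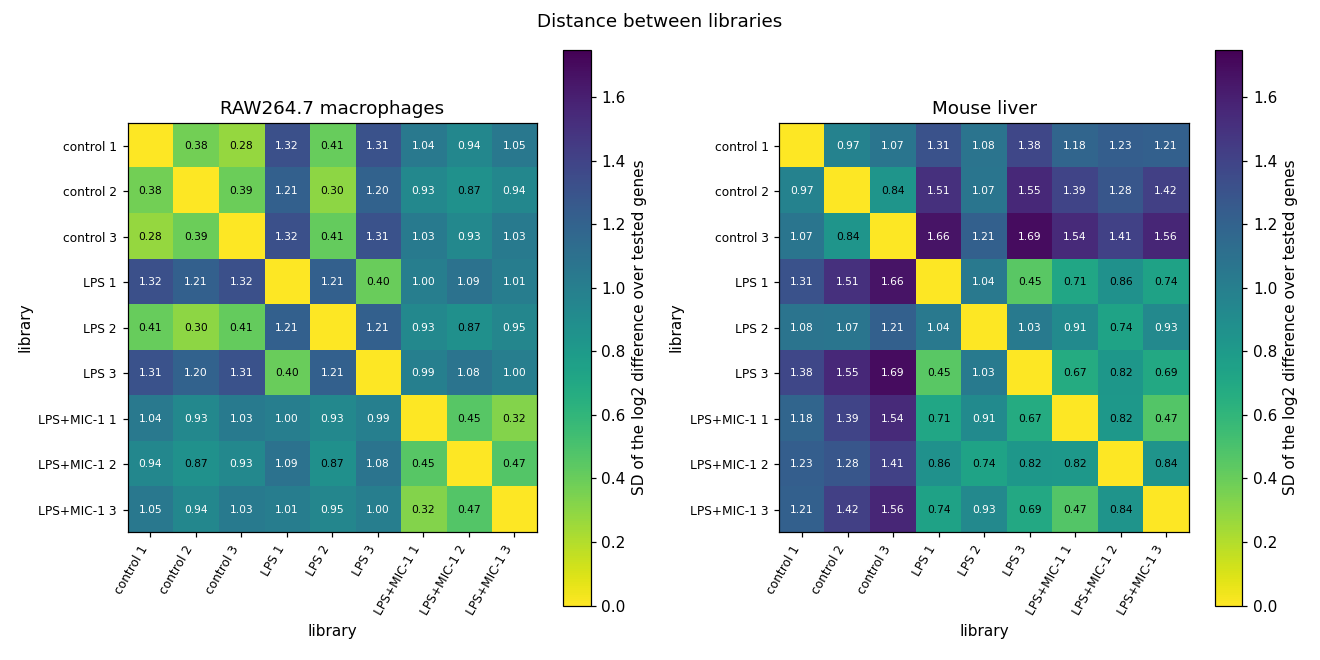
Standard deviation of the log2(FPKM + 0.5) difference between each pair of libraries over the tested genes, for macrophages (left) and liver (right), with both axes listing the libraries and the colour giving the value. The library labelled LPS 2 in macrophages is at 0.298 to 0.415 from the 3 controls and at 1.21 from LPS 1 and LPS 3.

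Depth, estimated from the steps between low FPKM values, was 18600000 to 24300000 reads in macrophages and 4750000 to 19200000 in liver, where controls 2 and 3 were the shallowest. The reads behind a tested member ranged in macrophages from an estimated 51.0 for the lowest value of Ifit2 to 5900 for the highest of Oasl1. In liver they ran from 0 for Oasl1 and Oasl2 to 2380 for Isg15. FPKM sums were 1137533 and 1132904 in macrophage LPS 1 and 3 and between 557136 and 652486 in the other 7 macrophage libraries. Rescaling all libraries to 1 sum moved the median Log2FC of all tested genes by -0.62 (LPS against control), 0.45 (LPS+MIC-1 against LPS) and -0.17 (LPS+MIC-1 against control) in macrophages, and by -0.33, -0.25 and -0.58 in liver. Of 8 macrophage markers found, 0 were at 0 in the cultures, and their summed FPKM was 12800 to 14800 in control, against 3.33 to 9.87 for 9 hepatocyte markers. In control liver the hepatocyte markers summed to 54300 to 111000.

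In unstimulated macrophages the antiviral genes were already expressed, and Isg15 and Usp18 stood highest. By mean FPKM in the controls, which is per length and can be set side by side, Isg15 was at 263 ± 40.0 (SD, n = 3), Usp18 at 139 ± 18.0, Oasl1 at 69.7 ± 15.4 and Oasl2 at 58.9 ± 5.34. Below them came Ifit3 at 34.3 ± 12.6, Ifit1 at 27.9 ± 4.74, Mx2 at 14.1 ± 1.59, Rsad2 at 12.8 ± 3.63 and Ifit2 at 5.06 ± 2.44, and Mx1 was last at 0.979 ± 0.135. The ranges of Oasl1 and Oasl2, of Ifit3 and Ifit1, and of Mx2 and Rsad2 overlapped. Within each control library, however, Oasl1 was above Oasl2 and Ifit3 above Ifit1, while Mx2 and Rsad2 changed order between libraries. These differences between genes were not tested.

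The antiviral genes of these macrophages did not move as a group with LPS. In the 9 libraries, 0 of 9 tested members passed the threshold (adjusted p below 0.01 and absolute Log2FC above 1, limma) in LPS against control, as did 0% of all 9905 genes in the higher and 0% in the lower direction, while 2 members and 4928 genes had an unadjusted p below 0.05. Without the library labelled LPS 2, Rsad2 rose and Ifit2 fell, where 16.3% of all genes were called higher and 17.9% lower. The median Log2FC of the 9 members was then -0.34, beside -0.02 over all genes.

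Rsad2 was the member that parted the LPS libraries most clearly. Its FPKM was 10.3, 17.0 and 11.1 in control, 79.0, 16.2 and 77.0 in LPS 1, 2 and 3, and 31.1, 21.1 and 30.8 in LPS+MIC-1. LPS 1 and LPS 3 were thus far above every other library, LPS 2 was within the controls, and LPS+MIC-1 lay between. Without LPS 2 the Log2FC was 2.60 ± 0.24 (SE, adjusted p = 3.13e-05) for LPS against control, -1.50 ± 0.24 (adjusted p = 0.000818) for LPS+MIC-1 against LPS and 1.10 ± 0.21 (adjusted p = 0.00275) for LPS+MIC-1 against control. With all 9 libraries the first was 1.85 ± 0.56 (adjusted p = 0.0777), the second -0.76 ± 0.56 (adjusted p = 0.352) and the third 1.10 ± 0.56 (adjusted p = 0.19).

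**Figure D2:**
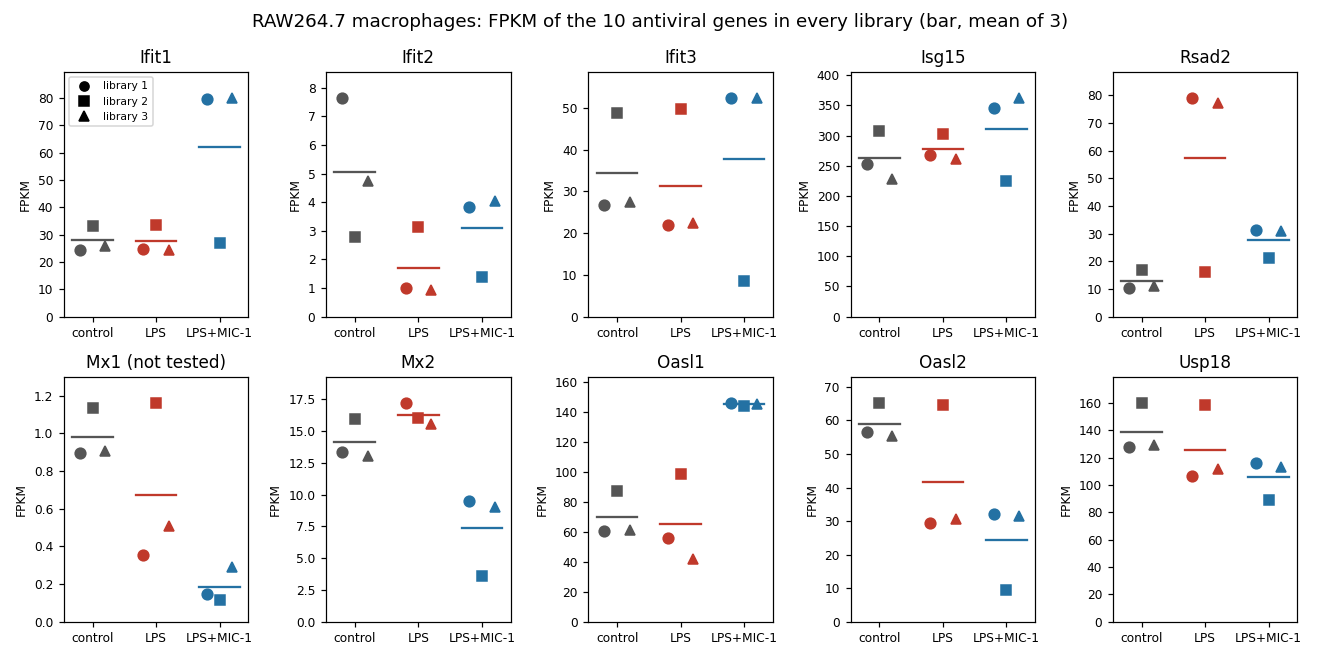
FPKM (vertical axes, each from 0) of the 10 antiviral genes in the 9 macrophage libraries by treatment, with a symbol for each library and a bar at the mean of 3. Rsad2 reaches 79.0 and 77.0 in LPS 1 and LPS 3 and stays at 16.2 in LPS 2, and Oasl1 sits between 144 and 146 in all 3 LPS+MIC-1 libraries.

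The Ifit genes, by contrast, were not higher with LPS. Ifit1 was at 24.5, 33.3 and 25.8 FPKM in the control group and at 24.9, 33.4 and 24.2 with LPS, in column order and without pairing. Ifit3 was at 26.6, 48.8 and 27.5 in control and at 22.1, 49.8 and 22.4 with LPS. In both genes the high LPS value was that of LPS 2, the library that lay among the controls and closest to control 2. Without LPS 2 the Log2FC with LPS was -0.17 ± 0.44 (adjusted p = 0.745) for Ifit1 and -0.56 ± 0.73 (adjusted p = 0.506) for Ifit3. For Ifit3, LPS 1 and 3 lay below every control, as in 43.4% of all genes. Ifit2 was at 7.64, 2.79 and 4.74 in control and at 1.01, 3.14 and 0.946 with LPS, and without LPS 2 it fell (Log2FC -1.82 ± 0.46, adjusted p = 0.00782), against -1.38 ± 0.51 (adjusted p = 0.078) with all libraries.

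With MIC-1 added, libraries 1 and 3 had the highest Ifit1 and Ifit3 of the table and library 2 did not. Ifit1 was at 79.6, 26.9 and 80.0 FPKM in LPS+MIC-1, so its second library was within the LPS range while the others were far higher. Ifit3 was at 52.3, 8.63 and 52.4, with the lowest value of all 9 libraries in LPS+MIC-1 2. Ifit2 was at 3.82, 1.40 and 4.05. The Log2FC of LPS+MIC-1 against LPS was 1.02 ± 0.40 for Ifit1 (adjusted p = 0.1), 0.74 ± 0.51 for Ifit2 (adjusted p = 0.313) and -0.0095 ± 0.68 for Ifit3 (adjusted p = 0.993), and none of them passed without LPS 2. Without both LPS 2 and LPS+MIC-1 2 all of them were higher with MIC-1, by 1.68 (adjusted p = 7.51e-05), 1.59 (adjusted p = 0.00878) and 1.22 (adjusted p = 0.00712). Leaving out LPS+MIC-1 2 alone, Ifit1 was called (1.54, adjusted p = 0.00656), whereas Ifit2 (1.15, adjusted p = 0.176) and Ifit3 (0.83, adjusted p = 0.219) were not, so their calls need both libraries left out. That choice of libraries was made after the values were seen.

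Of the oligoadenylate synthetase-like genes, neighbours on chromosome 5, Oasl1 passed in comparisons with MIC-1 and Oasl2 passed in none. Oasl1 was at 60.5, 87.5 and 61.2 FPKM in the controls, at 56.3, 98.8 and 41.7 with LPS, and at 146, 144 and 146 with LPS+MIC-1. Every LPS+MIC-1 library was above every other library. Of all tested genes, 17.9% were wholly higher in LPS+MIC-1 than in LPS and 31.4% wholly higher than in control, with 9 libraries. Oasl1 rose with LPS+MIC-1 against LPS without LPS 2 (Log2FC 1.58 ± 0.18, adjusted p = 0.000158) and against control (1.08 ± 0.16, adjusted p = 0.000811), and with 9 libraries the values were 1.24 ± 0.29 (adjusted p = 0.0241) and 1.08 ± 0.29 (adjusted p = 0.0325), short of the threshold. The shares of all genes called in LPS+MIC-1 against LPS were 2.06% higher and 1.81% lower with 9 libraries, and 11.3% higher and 12% lower without LPS 2. In LPS+MIC-1 against control they were 3.27% and 2.32% with 9 libraries, and 7.55% and 8.2% without LPS 2.

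Oasl2 was at 56.5, 65.1 and 55.3 FPKM in the controls, at 29.3, 64.5 and 30.8 with LPS, and at 32.2, 9.56 and 31.6 with LPS+MIC-1. All 3 LPS+MIC-1 libraries and LPS 1 and 3 lay below the controls. Of all tested genes, 34.9% lay wholly below control in LPS+MIC-1, and 43.4% in LPS without LPS 2. Without LPS 2 the Log2FC was -0.96 ± 0.46 (adjusted p = 0.0946) for LPS against control and -1.43 ± 0.42 (adjusted p = 0.0186) for LPS+MIC-1 against control, and neither passed the threshold. Its value with LPS+MIC-1 against LPS was -0.48 ± 0.46 (adjusted p = 0.387), and it turned to 0.086 (adjusted p = 0.403) once LPS+MIC-1 2 was left out too.

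Mx2 was lowest in the MIC-1 libraries, although it did not pass the threshold. Its FPKM was 13.4, 15.9 and 13.0 in control, 17.2, 16.0 and 15.6 under LPS, then 9.51, 3.57 and 9.02 with LPS+MIC-1. The last group lay wholly below LPS, as in 18.2% of all genes, and wholly below control, as in 34.9%. The Log2FC of LPS+MIC-1 was -1.20 ± 0.32 against LPS (adjusted p = 0.0339) and -0.997 ± 0.317 against control (adjusted p = 0.0526), short of the threshold of 0.01, and remained so without LPS 2 (adjusted p = 0.0176 and 0.0278). Mx1, below the filter, was at 0.898, 1.13 and 0.905 FPKM in the controls, 0.354, 1.16 and 0.509 under LPS and then 0.146, 0.114 and 0.292 with LPS+MIC-1. The LPS+MIC-1 libraries were the lowest of the table for Mx1 also, at an estimated 7.36 reads in the smallest.

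Isg15 and its protease Usp18, the most abundant members in control, did not pass in any macrophage comparison. Isg15 was at 253, 307 and 229 FPKM in the controls, 268, 303 and 262 under LPS and then 345, 224 and 362 with LPS+MIC-1, and its groups overlapped. Its Log2FC was 0.09 ± 0.20 for LPS against control (95% confidence interval -0.38 to 0.56) and 0.13 ± 0.20 for LPS+MIC-1 against LPS (-0.34 to 0.60). Without LPS 2 these were 0.02 ± 0.21 (-0.47 to 0.51) and 0.20 ± 0.21 (-0.29 to 0.69). Usp18 was at 128, 160 and 129 in the controls, 106, 158 and 112 under LPS, and 116, 89.0 and 113 with LPS+MIC-1. Every LPS+MIC-1 library was below every control, as in 34.9% of all genes. The Log2FC was -0.39 ± 0.19 (adjusted p = 0.168) for LPS+MIC-1 against control and -0.16 ± 0.19 for LPS against control (-0.60 to 0.27).

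Over the 9 tested members, 0 passed in LPS+MIC-1 against LPS and 0 in LPS+MIC-1 against control with all libraries. An unadjusted p below 0.05 was found for 3 and 4 of them, and for 3740 and 3828 of all 9905 tested genes. Without LPS 2, 1 was higher (Oasl1) and 1 lower (Rsad2) in the first, and 2 were higher (Rsad2 and Oasl1) in the second. Without LPS 2 and LPS+MIC-1 2, 5 were called in the first, Ifit1, Ifit2, Ifit3 and Oasl1 higher and Rsad2 lower, beside 11% of all genes called higher and 11.6% lower. With libraries 1 and 3 of each treatment averaged into 1 sample, 0 members and 0 genes were called in any of the 3 comparisons. That fit set each average beside library 2 alone, so it had fewer samples per treatment and LPS 2 stayed in the LPS group. The absence of calls in it therefore does not show that differences were absent. The calls given above count libraries 1 and 3 as separate samples. The comparisons with LPS+MIC-1 share those libraries, and the comparisons with control share the controls.

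In the liver of control mice the members were listed at lower FPKM than in control macrophages and in another order. Liver and macrophage values were scaled separately, so this difference in level was not tested. Isg15 was highest at 28.7 ± 4.85 FPKM, then Ifit1 at 11.7 ± 3.16, Ifit3 at 7.74 ± 1.71, Usp18 at 5.09 ± 1.09, Mx2 at 4.44 ± 0.973 and Rsad2 at 3.82 ± 1.17. From Ifit1 down to Rsad2 each range overlapped with the next. Oasl1 was at 2.00 FPKM or less, and Oasl2, Ifit2 and Mx1 were below 1 FPKM in every control. In whole liver, more cells of a type and more RNA per cell cannot be told apart.

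LPS raised the antiviral genes in liver. Of 8 tested members 6 rose (adjusted p below 0.05 and absolute Log2FC above 1, limma), Ifit1, Ifit3, Isg15, Rsad2, Oasl2 and Usp18, and 0 fell, beside 13.4% of all 10147 tested genes called higher and 11.2% lower. In 7 of the 8, all but Mx2, every LPS library was above every control, as in 24.2% of all genes, and in 0 below, as in 20.8%. Their median Log2FC was 1.88, beside 0.15 over all genes.

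On the log2(FPKM + 0.5) scale Isg15 had the largest difference among these 8, while with a constant of 0.1 that of Oasl2 was larger (3.54 against 2.71). Isg15 was at 34.1, 27.3 and 24.7 FPKM in the control group and at 235, 121 and 231 with LPS, a Log2FC of 2.70 ± 0.27 (adjusted p = 0.000709), and LPS 2 was the lowest of the LPS livers. Usp18 was at 4.87, 6.27 and 4.12 in control and at 18.2, 18.5 and 20.6 with LPS, a Log2FC of 1.83 ± 0.18 (adjusted p = 0.000609). No LPS liver was near a control in either gene. Rsad2 was at 5.03, 3.73 and 2.70 in control and at 13.4, 9.18 and 10.5 with LPS, a Log2FC of 1.43 ± 0.25 (adjusted p = 0.00547).

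**Figure D3:**
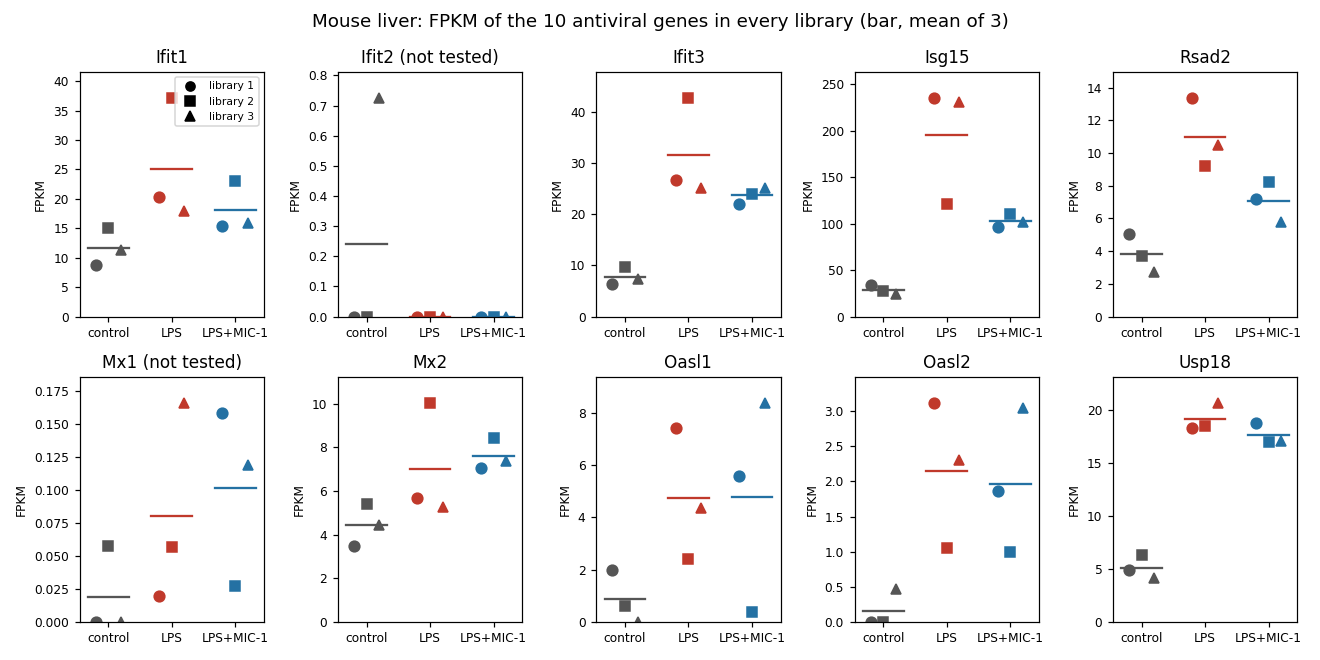
FPKM (vertical axes, each from 0) of the 10 antiviral genes in the 9 liver libraries by treatment, with a symbol for each library and a bar at the mean of 3. Isg15 is at 121 to 235 under LPS and at 96.2 to 110 with LPS+MIC-1, above the controls at 24.7 to 34.1, and Ifit2 is listed at 0 in 8 of the 9 libraries.

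Ifit3 was at 6.26, 9.61 and 7.36 FPKM in the control group and at 26.7, 42.6 and 25.0 with LPS (Log2FC 1.93 ± 0.24, adjusted p = 0.00181). Ifit1 was at 8.70, 15.0 and 11.3 in control and at 20.3, 37.1 and 17.9 with LPS (1.03 ± 0.32, adjusted p = 0.0372). For both, the second library was the highest of its treatment. The call of Ifit1 lay at the edge of the threshold and was lost without any of 7 single libraries (adjusted p up to 0.0927). It was also lost under 6 of 9 other settings, with a Log2FC down to 0.45 when libraries were weighted by quality and 0.68 when all were rescaled to 1 sum. Ifit2 was listed at 0 in all libraries except control 3, at 0.725 FPKM.

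In control livers Oasl2 was listed at 0 in libraries 1 and 2 and stood at 0.461 FPKM in library 3. It was at 3.11, 1.05 and 2.30 with LPS. It rose on the log2(FPKM + 0.5) scale by 2.01 ± 0.46 (adjusted p = 0.0134), a size that depends on the constant, and not without LPS 1 or LPS 3 (adjusted p up to 0.0574). Oasl1 was at 2.00, 0.624 and 0 in control and at 7.40, 2.42 and 4.36 with LPS, all LPS livers above all controls, with a Log2FC of 2.11 ± 0.90 (adjusted p = 0.0982). Mx2 was at 3.46, 5.41 and 4.46 in control and at 5.69, 10.0 and 5.28 with LPS, overlapping, with a Log2FC of 0.57 ± 0.26 (adjusted p = 0.119). Mx1 did not exceed 0.166 FPKM in any liver.

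MIC-1 given before LPS left the members between control and LPS or level with LPS. In LPS+MIC-1 against LPS, 0 of 8 members and 0% of the 10147 genes passed in either direction (0% higher, 0% lower), while 2 members and 364 genes had an unadjusted p below 0.05. Those members were Isg15 and Rsad2, and in both every LPS+MIC-1 liver was below every LPS liver, as in 4.64% of all genes, while 0 members were wholly above, as in 5.1%. Isg15 was at 96.2, 110 and 102 FPKM in LPS+MIC-1, with a Log2FC of -0.86 ± 0.27 (95% confidence interval -1.49 to -0.24, adjusted p = 0.997). Rsad2 was at 7.17, 8.23 and 5.80, with a Log2FC of -0.60 ± 0.25 (-1.17 to -0.03, adjusted p = 0.997). Their direction was kept under each scaling and each left-out library, and with libraries weighted by quality Isg15 passed (-1.21, adjusted p = 0.000889).

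The other members showed less. Ifit1 was at 15.5, 23.1 and 15.9 FPKM in LPS+MIC-1 and Ifit3 at 21.9, 23.9 and 25.1, with a Log2FC against LPS of -0.41 ± 0.32 and -0.37 ± 0.24. Usp18 was at 18.8, 17.0 and 17.0, Mx2 at 7.04, 8.44 and 7.37 and Oasl2 at 1.86, 0.999 and 3.04, all within or across the range of LPS. Oasl1 was at 5.60, 0.378 and 8.36, a wider range than with LPS, and its Log2FC of -0.41 ± 0.90 had an interval from -2.48 to 1.65. The interval of Usp18 was the narrowest, -0.52 to 0.29.

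Against control, the LPS+MIC-1 livers kept much of the difference, and these values share the control livers with those of LPS. Of the 8 members 4 rose, Ifit3 (1.57 ± 0.24, adjusted p = 0.00325), Isg15 (1.83 ± 0.27, adjusted p = 0.00299), Oasl2 (1.90 ± 0.46, adjusted p = 0.0147) and Usp18 (1.71 ± 0.18, adjusted p = 0.000812), and 0 fell, beside 13.8% of all genes called higher and 11.5% lower. The call of Oasl2 was lost without control 2 (1.74, adjusted p = 0.0507) or LPS+MIC-1 3 (1.60, adjusted p = 0.0599). In 7 of the 8, all but Oasl1, every LPS+MIC-1 liver was above every control, as in 30.5% of all genes, and in 0 below, as in 24.1%. Rsad2 was at 0.83 ± 0.25 (adjusted p = 0.0309), short of the minimum Log2FC of 1, Mx2 at 0.73 ± 0.26 (adjusted p = 0.0571), Ifit1 at 0.62 ± 0.32 (adjusted p = 0.153) and Oasl1 at 1.69 ± 0.90 (adjusted p = 0.169).

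**Figure D4:**
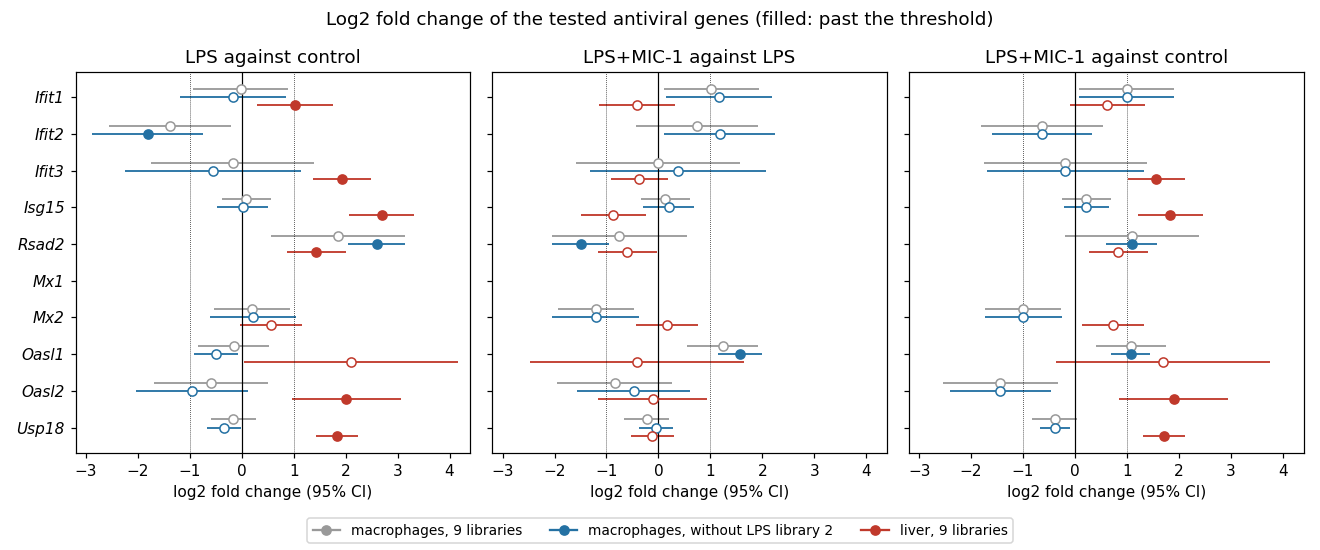
Log2FC (horizontal axes) with 95% confidence intervals of the tested antiviral genes (rows) in 3 comparisons, for macrophages with 9 libraries, macrophages without the library labelled LPS 2 and liver; filled points passed the threshold and dotted lines mark a Log2FC of -1 and 1. In LPS against control, 6 liver members are filled on the higher side, whereas in macrophages without LPS 2 only Rsad2 is filled higher (2.60) and only Ifit2 lower (-1.82).

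The genes that lead to and from the members were followed in lists. No interferon ligand of 8 passed the filter in either table. Ifnb1, the gene of interferon beta, was at 0.137, 0.0747 and 0.284 FPKM in control macrophages, at 1.19, 0.374 and 0.893 under LPS and at 0, 0.331 and 0.0981 with LPS+MIC-1. It was listed at 0 in 7 of the 9 livers and did not exceed 0.12 in the others. Its highest macrophage values were thus in LPS 1 and LPS 3, as for Rsad2.

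Of the 10 genes of receptors and JAK-STAT signalling, 0 passed in macrophages with 9 libraries, while without LPS 2 there were 3 higher and 1 lower with LPS, and 0 higher and 3 lower with LPS+MIC-1 against LPS, beside the shares of all genes of 16.3% and 17.9%, then 11.3% and 12%. Ifnar2, the signalling chain of the receptor, was at 80.1, 92.4 and 80.6 FPKM in the controls, 314, 95.1 and 334 under LPS and then 108, 90.6 and 107 with LPS+MIC-1. Without LPS 2 it rose with LPS (1.94 ± 0.10, adjusted p = 3e-06) and fell with MIC-1 (-1.67 ± 0.10, adjusted p = 8.9e-06), and so did Ifnar1 (1.19 ± 0.12 and -1.13 ± 0.12). Stat2 was at -1.05 ± 0.30 (adjusted p = 0.0133) with LPS and Irf9 at -0.16 ± 0.14, and neither passed. In liver 0 of the 10 passed with LPS, with Ifngr1 nearest (0.83 ± 0.21, adjusted p = 0.0177), and Ifnar1 fell in LPS+MIC-1 against control (-1.04 ± 0.20, adjusted p = 0.00723). Of all liver genes, 13.4% were called higher and 11.2% lower with LPS, and 13.8% and 11.5% in LPS+MIC-1 against control.

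Among genes that induce interferon, Irf7, a transcription factor that is itself induced by interferon, was at 292, 388 and 317 FPKM in control macrophages, 1211, 376 and 1198 under LPS and then 259, 145 and 257 with LPS+MIC-1. Of the 15 tested, 3 were higher and 5 lower with LPS without LPS 2, and 3 were higher and 3 lower with MIC-1 against LPS, next to the same shares of all genes. Irf7 rose and fell in these (1.87 ± 0.25 and -2.50 ± 0.25), as did Ticam1 (2.20 ± 0.11 and -1.19 ± 0.11), whereas Tlr4 (-2.54 ± 0.11 and 2.90 ± 0.11) and Irf3 (-2.22 ± 0.11 and 1.81 ± 0.11) did the opposite. With 9 libraries 0 of 15 passed in either. In liver 4 of 12 rose and 0 fell with LPS, beside 13.4% of all genes called higher and 11.2% lower. They were led by Irf7 (2.07 ± 0.26, adjusted p = 0.00182), Ticam1 (1.43 ± 0.22) and Ikbke (1.22 ± 0.23).

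The negative regulators and the enzymes that attach Isg15 were too few for their counts to be told apart from the shares of all genes. Of 6 regulators, Ptpn6 fell with LPS (-1.15 ± 0.09) and Socs3 rose with MIC-1 (1.41 ± 0.33) in macrophages without LPS 2, and in liver Socs3 rose (2.51 ± 0.26) and Irf2 fell (-1.06 ± 0.31) with LPS. Socs1, an inhibitor of the Janus kinases, did not pass in any comparison and was at 3.39 to 5.08 FPKM in control macrophages. In liver it was at 21.2 and 22.2 FPKM in LPS 1 and 3 and at 0.488 in LPS 2, against 1.13 to 2.47 in control (Log2FC 1.91 ± 1.10, adjusted p = 0.198). Of the 3 Isg15 enzymes, 0 passed with LPS in macrophages or liver. Ube2l6, which carries Isg15 to its targets, was at 0.84 ± 0.24 in liver with LPS (adjusted p = 0.0259) and rose in LPS+MIC-1 against control (1.03 ± 0.24, adjusted p = 0.0119). In macrophages Ube2l6 went the other way, at 138, 153 and 135 FPKM in control and 78.9, 54.8 and 71.5 with LPS+MIC-1. In that comparison 1 of the 3 enzymes was called lower without LPS 2, beside 8.2% of all genes, and 0 with 9 libraries.

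Other interferon-stimulated genes were called in both directions in macrophages, and in liver only in the higher one. Of 45 tested in macrophages, 10 were higher and 12 lower with LPS without LPS 2 (median 0.07, beside -0.02 over all genes, of which 16.3% and 17.9% were called). With MIC-1 against LPS, 4 were higher and 13 lower (-0.37, beside 0.01 over all genes, of which 11.3% and 12% were called). With 9 libraries the counts were 0 and 0, then 0 and 3, beside 0% and 0%, then 2.06% and 1.81% of all genes. The 3 were Ly6e (-1.17 ± 0.13), Ifi27l2a (-2.85 ± 0.33) and the chemokine Cxcl11 (-4.46 ± 0.71). Parp12 (-2.65 ± 0.10), Ifi44 (-2.35 ± 0.10) and Samd9l (-2.45 ± 0.12) led those lower with LPS without LPS 2. In liver 22 of 43 rose and 0 fell with LPS (median 1.43, beside 0.15 and 13.4% of all genes called higher), led by Cxcl10 (2.52 ± 0.16), Zbp1 (3.98 ± 0.31) and Ifit3b (2.35 ± 0.19). In LPS+MIC-1 against LPS 0 of the 43 passed (median -0.18, beside -0.01), as did 0% of all genes. Against control 20 rose and 0 fell, beside 13.8% of all genes called higher and 11.5% lower.

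Across libraries the members kept together in liver more than in macrophages. The Pearson correlation of log2(FPKM + 0.5) between pairs of tested members had a median of 0.72 over 28 pairs in liver (range 0.182 to 0.951) and of 0.217 over 36 pairs in macrophages (range -0.794 to 0.923), each over 9 libraries that include the treatment differences. Among the genes closest to the mean standardized profile of the members in liver were Cxcl10 (r = 0.989), Ifit3b and Fcer1g (both 0.986) and Serpina3h (0.983). In macrophages they included Urgcp (0.952), Slfn8 (0.941), Rps19-ps3 (0.930) and Zfp952 (0.901). That profile was highest in LPS+MIC-1 1 and 3 (0.543 and 0.554 standard deviations) and lowest in LPS+MIC-1 2 (-1.13).

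In liver the marker sums of some cell types were higher with LPS, as most members were, and those of others were not. Beside the marker counts below, 13.4% of all genes were called higher and 11.2% lower with LPS. Neutrophil markers, 8 of 9 found and 0 at 0 throughout, summed to 37.0 to 52.4 FPKM in the controls, 351 to 449 under LPS and then 192 to 463 with LPS+MIC-1, and 6 of 7 tested rose with LPS. The other tested one, Cxcr2, fell (Log2FC -2.30, adjusted p = 0.0049) and held most of the control sum, at 26.5, 42.6 and 36.2 FPKM. Macrophage markers, 8 of 9 found, summed to 71.8 to 101, 366 to 812 and 290 to 621, and Kupffer cell markers, all 8 found, to 81.9 to 90.9, 119 to 153 and 155 to 230. The Kupffer cell markers did not move together, since 2 of the 8 rose (Marco and C1qb) and 2 fell (Clec4f and Vsig4) with LPS. Among endothelial markers 2 of 6 rose and 2 fell, and of 5 tested stellate markers 0 were called. The only tested NK cell marker rose, as did 1 of 2 plasmacytoid dendritic ones. In contrast, the 5 B cell markers summed to 4.25 to 4.57 in control and at most 2.11 in the treated livers, and the 7 T cell markers to 13.9 to 19.1 and at most 7.46. The summed neutrophil markers of LPS+MIC-1 2 (463) were above those of LPS+MIC-1 1 and 3 (192 and 204), while Isg15 was at 110, 96.2 and 102 FPKM in them. The part of these cells in the members' levels was not tested. In macrophage cultures the neutrophil markers summed to 2.44 to 3.55 in control, 4.96 to 43.6 under LPS and then 690 to 756 with LPS+MIC-1, nearly all of it S100a8 (651 to 718), with S100a9 at no more than 0.482 and 1 marker at 0 in every library.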

How the data were processed

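RNA-seq values of 9 RAW264.7 and 9 mouse liver libraries were used, 3 per treatment. Per the labels and the methods, the authors sequenced at BGI, pseudoaligned reads to an mm9 RefSeq index with Kallisto 0.45.0, used tximport to obtain gene totals and deposited FPKM computed with DESeq2 1.20.0. The authors' deposited comparisons (mean counts, fold changes, Wald statistics and p-values) were not used. The study's own macrophage comparison drew on fewer LPS libraries than were deposited. Columns name the treatment but carry no replicate number, and 0 columns were left unmatched.

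Tests covered genes averaging above 1 FPKM in the 9 libraries of their table and ran on log2(FPKM + 0.5) with limma 3.58.1 (eBayes with trend, R 4.3.3), all groups in 1 fit, adjusted by Benjamini-Hochberg over all tested genes. A call needed an absolute Log2FC above 1 and an adjusted p below 0.01 in macrophages, as in the study, or 0.05 in liver, where the study names a p-value without saying that it was adjusted. The scale understates changes of low genes. Intervals are at 95%.

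The members, lists and alternatives were chosen with earlier results of these data known, so p-values were not adjusted over the members and no set test was run. Besides the members, the genes named are up to 3 per list with the smallest adjusted p in LPS against control and LPS+MIC-1 against LPS of each table, others by role (Ifnb1, Ifnar1, Ifnar2, Stat2, Irf9, Irf7 and Socs1), and the 5 closest to the members' profile in each table, with some of the genes this rule names not reported here; the cell type markers named were chosen after their values were seen. The fit was tested on simulated data. Depth was estimated from steps of 1 read in low FPKM values with transcript lengths of an mm9 annotation; within 0.15 read, 82.4 to 88.6% of low values were whole. Numpy and pandas were used for these steps.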

Additional observations from a re-analysis of the deposited data

Results flagged for a closer look

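Mx2, Oasl2 and Usp18 stood on opposite sides of control in macrophages and liver when LPS+MIC-1 was set against control: in macrophages every LPS+MIC-1 library was below every control, and in liver every LPS+MIC-1 library was above every control. Of all tested genes, 34.9% lay wholly below control in macrophages and 30.5% wholly above control in liver. How many genes did both was not counted. The mean difference on the log2(FPKM + 0.5) scale was -0.997 in macrophages and 0.73 in liver for Mx2, -1.43 and 1.90 for Oasl2, and -0.39 and 1.71 for Usp18. The difference between macrophages and liver was not tested, because the tables were scaled separately. None of these genes passed the threshold in macrophages, and Oasl2 and Usp18 did in liver. The macrophages were cultures with MIC-1 in the medium and the livers came from mice gavaged with it, so dose, route and cell type differ together. The exposure time of the cultures is not given in the sources used here.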

How the results depend on the processing

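No paired analysis was possible because the columns carry the treatment and no replicate number. The cause of the changes below was not tested. In macrophages with LPS against control, 0 genes and 0 members were called, and 3588 and 2 with libraries weighted by quality, 3417 and 2 without LPS 2 and LPS+MIC-1 2, 3544 and 2 with libraries 1 and 3 alone, and 0 to 3386 genes and 0 to 2 members leaving out 1 library (3386 and 2 without LPS 2). For LPS+MIC-1 against LPS the counts were 383 and 0, and became 2330 and 5 with weights, 5 genes with the 2 groups alone in the fit, 823 and 2 at an adjusted p below 0.05, 0 genes with libraries 1 and 3 averaged, 2241 and 5 without both second libraries, 617 genes with no minimum fold, 2269 and 5 with libraries 1 and 3 alone, and 109 to 2310 and 0 to 2 leaving out 1. For LPS+MIC-1 against control they were 554 and 0, and became 1955 and 3, 1541 and 2, 1172 and 1, 0 genes, 1705 and 3, 866 genes, 1904 and 3, and 141 to 1560 and 0 to 2 under the same settings in that order. In liver, LPS against control gave 2493 genes and 6 members, 4302 genes with weights, and 1227 to 3510 and 4 to 7 leaving out 1. LPS+MIC-1 against LPS gave 0 genes and 0 members, but 1 gene with a constant of 1, 2 with no filter, 631 genes and 1 member with weights, 1 without trend, 100 genes and 0 members at an unadjusted p below 0.05, 218 with libraries 1 and 3 alone, and 0 to 35 leaving out 1. LPS+MIC-1 against control gave 2560 and 4, 3928 genes with weights, and 1749 to 3111 and 3 to 5 leaving out 1.

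Rescaled to 1 sum, 86.0% of called genes were higher in macrophage LPS+MIC-1 against LPS (53.3% otherwise), 78.0% against control (58.5%), and in liver 30.1% with LPS (54.4%) and 17.2% with LPS+MIC-1 against control (54.5%). That scaling turned the Log2FC of macrophage Isg15 (-0.60) and Mx2 (-0.46) with LPS, of Ifit3 (0.47) and Usp18 (0.27) with LPS+MIC-1 against LPS, and in liver of Mx2 against LPS (-0.11) and Ifit1 against control (-0.0088). For LPS+MIC-1 against LPS in macrophages, weights turned Ifit3 (1.11), Oasl2 (0.010) and Usp18 (0.056), leaving out both second libraries, or using libraries 1 and 3 alone, turned Ifit3 (1.22), Oasl2 (0.086) and Usp18 (0.074), and averaging turned Isg15 (-0.0073). Against control, Ifit3 became 0.81, 0.66 without both and 0.94 with libraries 1 and 3 alone. In liver against LPS, Oasl1 became 0.11 with weights and 0.25 with libraries 1 and 3 alone. Leaving out 1 library, ranges that crossed 0 were -0.17 to 0.11 (Ifit1), -0.56 to 0.10 (Ifit3), -0.0083 to 0.20 (Isg15) and -0.50 to 0.12 (Oasl1) in macrophages with LPS, -0.43 to 0.83 and -0.61 to 0.66 for Ifit3 with LPS+MIC-1 against LPS and control, and in liver -1.06 to 0.61 (Oasl1) and -0.45 to 0.21 (Oasl2) against LPS. None of these values had been called. Of 1074 single-gene values under the alternatives, 971 kept direction and side of the threshold, 48 newly passed, 18 no longer passed and 37 reversed. Ifit3, Isg15, Rsad2 and Usp18 stayed called in liver with LPS under each alternative run. Few or 0 reads limit Ifit2 and Mx1 in all livers and Oasl1 and Oasl2 in the control livers.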
